A study of Mus musculus with 16 samples.

Results

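The class I and immunoproteasome genes described here were B2m, H2-K1, H2-D1, Tap1, Tap2, Tapbp, Psmb8, Psmb9, Psmb10 and Nlrc5, 10 of the 49585 genes of a read count table, chosen by name for their part in class I antigen presentation. All 10 were found by Ensembl identifier, and 9 passed the filter on low counts, Nlrc5 being the exception. The table covers mouse small intestinal organoids, epithelial structures grown from isolated crypts, in 4 groups of 4 cultures. Organoids labelled WT (Atg16l1 fl/fl) carried floxed Atg16l1 alleles without cre, and those labelled KO (Atg16l1dIEC, ΔIEC from here on) carried the same alleles with cre driven by the villin promoter, which acts in intestinal epithelium. Mice of the study were 8 to 12 wk old and had been backcrossed to C57BL/6 for at least 6 generations. Within each genotype, 4 cultures were left as control and 4 received IL-22 at 10 ng/ml for 24 h. The labels carry 2 numbers per genotype, with 2 cultures per number and treatment, and each number was taken here as an organoid line. Whether a line came from 1 animal is not stated. On this reading, cultures of a line share their source and each genotype rests on 2 lines. In every list of 4 values here, the first 2 cultures belong to line 1 of that genotype and the last 2 to line 2. P-values over cultures measure the spread between cultures, which may be partly technical.

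Between 2135000 and 5574860 reads per culture (median 3499276) had been assigned to genes, 36.3% to 38.3% of all reads counted, and values are given as CPM, read counts scaled to a common library size after TMM normalization. Atg16l1 itself had 38.7, 31.5, 41 and 49 CPM in untreated fl/fl cultures, 39.1, 39.8, 51.6 and 48.6 in IL-22-treated fl/fl cultures, 2.58, 2.70, 1.20 and 4.14 in untreated ΔIEC cultures and 0.807, 5.95, 0.301 and 0.288 in IL-22-treated ΔIEC cultures. The highest ΔIEC value lay far under the lowest fl/fl value. The second IL-22-treated ΔIEC culture stood apart from the other 3 of its group with 21 Atg16l1 counts against 1 or 2. Without that culture the number of members called was 6 for IL-22 in ΔIEC and 1 for ΔIEC against fl/fl under IL-22, as with it. Atg16l1 itself, not called with all cultures, then passed as lower with IL-22 in ΔIEC (adjusted p = 0.00406 by edgeR). Of 8 epithelial markers all were detected, while 8 of 11 immune cell markers and 8 of 10 stromal markers had at most 3 counts in every culture, Ptprc, Cd3g, Adgre1, Col1a1 and Pdgfra among them, and Cd3e, Itgax, Ncr1, Kdr and Dcn had none. The summed immune list lay at 9.89 to 16.2 CPM without and 11.2 to 15.2 CPM with IL-22 in fl/fl, and at 10.3 to 12.8 CPM without and 9.06 to 13.2 CPM with IL-22 in ΔIEC. Of the immune markers 2 passed the filter, and none was called in any comparison. For ΔIEC against fl/fl, 1 of them had log2 differences of 1.98 untreated and 1.76 with IL-22. Both had an unadjusted p under 0.05 in the edgeR test given below. The other marker had -0.08 and -0.33.

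Class I molecules display peptides from the cytosol on the cell surface, where CD8 T cells read them. Proteasomes cut proteins into peptides, the TAP transporter carries these into the endoplasmic reticulum, and tapasin with other chaperones loads them onto a heavy chain paired with β2-microglobulin. Interferons raise these genes together through IRF1 and the transactivator NLRC5, and exchange the 3 catalytic subunits of the constitutive proteasome for the immunosubunits encoded by Psmb8, Psmb9 and Psmb10. IL-22 acts on epithelial cells mainly through STAT3.

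By position, 7 of the 10 members lie in the major histocompatibility complex on chromosome 17 (GRCm38), between 33915899 and 35267499. Psmb9, Tap1, Psmb8 and Tap2 sit side by side in 34335 bases, B2m is on chromosome 2, and Psmb10 and Nlrc5 are on chromosome 8. RefSeq promoter windows on GRCm38.p6, 250 bases before and 50 bases after the gene's start, were at hand for 8 of the 10 members. The following 5 windows, all 5′ to 3′ on the gene's strand, are shown because the results turn on H2-D1 against H2-K1, on Psmb8, and on Tap1 and Psmb9, which are read in opposite directions from starts 226 bases apart and share 275 bases of window. Capitals mark matches on either strand to the ISRE core GAAANNGAA (IRF factors), the GAS element TTCNNNGAA (STAT factors), a loose κB site GGANNNNCC (NF-κB) and the CCAAT box (NF-Y), with overlapping matches merged.
B2m, chr2:122147437-122147736, + strand: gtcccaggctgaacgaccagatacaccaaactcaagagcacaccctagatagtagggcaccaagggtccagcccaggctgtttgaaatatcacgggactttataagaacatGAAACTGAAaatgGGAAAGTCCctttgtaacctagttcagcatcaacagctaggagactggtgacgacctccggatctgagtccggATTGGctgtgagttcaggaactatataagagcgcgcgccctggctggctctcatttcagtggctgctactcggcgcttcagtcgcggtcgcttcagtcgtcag
H2-K1, chr17:34000298-34000597, - strand: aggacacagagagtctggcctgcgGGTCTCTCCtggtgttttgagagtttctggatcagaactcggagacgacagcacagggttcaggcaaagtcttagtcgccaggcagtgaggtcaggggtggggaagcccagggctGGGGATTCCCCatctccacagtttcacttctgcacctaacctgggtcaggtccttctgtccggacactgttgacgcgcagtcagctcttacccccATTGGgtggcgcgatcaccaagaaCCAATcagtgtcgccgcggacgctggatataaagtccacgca
H2-D1, chr17:35262844-35263143, + strand: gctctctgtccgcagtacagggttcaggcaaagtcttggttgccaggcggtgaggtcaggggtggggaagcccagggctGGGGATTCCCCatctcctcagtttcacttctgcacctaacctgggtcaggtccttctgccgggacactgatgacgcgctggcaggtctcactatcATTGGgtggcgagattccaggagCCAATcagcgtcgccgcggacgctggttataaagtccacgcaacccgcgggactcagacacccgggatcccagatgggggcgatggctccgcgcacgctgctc
Tap1, chr17:34187306-34187605, + strand: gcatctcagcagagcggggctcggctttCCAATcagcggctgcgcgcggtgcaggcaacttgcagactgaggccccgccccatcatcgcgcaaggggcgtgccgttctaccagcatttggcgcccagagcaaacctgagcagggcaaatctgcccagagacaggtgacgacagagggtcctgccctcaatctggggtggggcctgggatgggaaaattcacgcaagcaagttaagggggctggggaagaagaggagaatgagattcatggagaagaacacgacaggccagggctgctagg
Psmb8, chr17:34197945-34198244, + strand: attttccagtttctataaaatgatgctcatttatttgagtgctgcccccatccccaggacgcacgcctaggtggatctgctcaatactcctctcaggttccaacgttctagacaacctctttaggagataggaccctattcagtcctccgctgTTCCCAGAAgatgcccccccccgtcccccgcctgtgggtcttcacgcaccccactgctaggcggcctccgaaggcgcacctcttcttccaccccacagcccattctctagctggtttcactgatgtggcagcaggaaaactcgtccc
The B2m window holds an ISRE core at 139 bases and a κB match at 126 bases before the start. H2-K1 and H2-D1 hold the same pair of overlapping κB matches, from 111 and 109 bases before the start in H2-K1 and from 171 and 169 in H2-D1. Both also hold a pair of CCAAT boxes, which begin at 16 bases before and 9 bases after the start in H2-K1 and at 76 and 53 bases before it in H2-D1. H2-K1 had 2 windows, of which only the first was used. In it the stretch tataaagtccacgca lies after the start, while in H2-D1 the same stretch lies before it. Distances from the start thus depend on the start used and are not comparable between these genes. In lower case, both windows also hold cagtttcacttctgc shortly after the κB pair. Its other strand reads GAA and then GAAA, the reverse order of the ISRE core letters. This order was not searched for, so a window without an ISRE match may still hold an IRF site. H2-K1 has a further κB match at 226 bases, the Psmb8 window one GAS match at 97 bases, and the stretch shared by Tap1 and Psmb9 one CCAAT box at 222 bases before the Tap1 start. Among 32851 windows of 300 bases, 8.56% hold the ISRE core, 8.3% the GAS element, 48.4% the κB letters and 37.4% a CCAAT box. Tapbp holds 2 CCAAT boxes, and the Psmb10 window has no match to these letters.

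The first question was how IL-22 moved these genes in each genotype. In fl/fl organoids, 3 of the 9 tested members rose with IL-22 at an adjusted p under 0.01 (H2-D1, Tap2 and Psmb10) and none fell, against 10.6% of all 12559 tested genes called higher and 10.2% called lower. In ΔIEC organoids, 6 rose (H2-D1, Tap1, Tap2, Tapbp, Psmb8 and Psmb10) and none fell, against 9.83% of all genes higher and 7.65% lower. The median log2 fold change over the 9 was 0.11 in fl/fl and 0.75 in ΔIEC, beside -0.0455 and -0.0073 over all tested genes. All 4 treated cultures lay above all 4 untreated ones for 4 of 9 members in fl/fl and for 6 of 9 in ΔIEC, where 15.5% and 14.1% of all genes did so. The adjusted p is edgeR's quasi-likelihood test with Benjamini-Hochberg adjustment over all tested genes. With the organoid line as a block, Psmb8 passed too in fl/fl (4 of 9, against 15.0% of all genes) and H2-K1 in ΔIEC (7 of 9, against 13.8%). When the cultures of a line were summed, leaving 2 lines per group, no member passed in fl/fl and 2 passed in ΔIEC, Psmb8 and Psmb10. The count in fl/fl fell to 1, H2-D1, without the fourth untreated culture, the third treated culture or line 2, and that in ΔIEC fell to 3 (H2-D1, Psmb8 and Psmb10) without line 2. In bulk RNA a gene's level cannot tell more cells of one type from more RNA per cell.

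**Figure D1:**
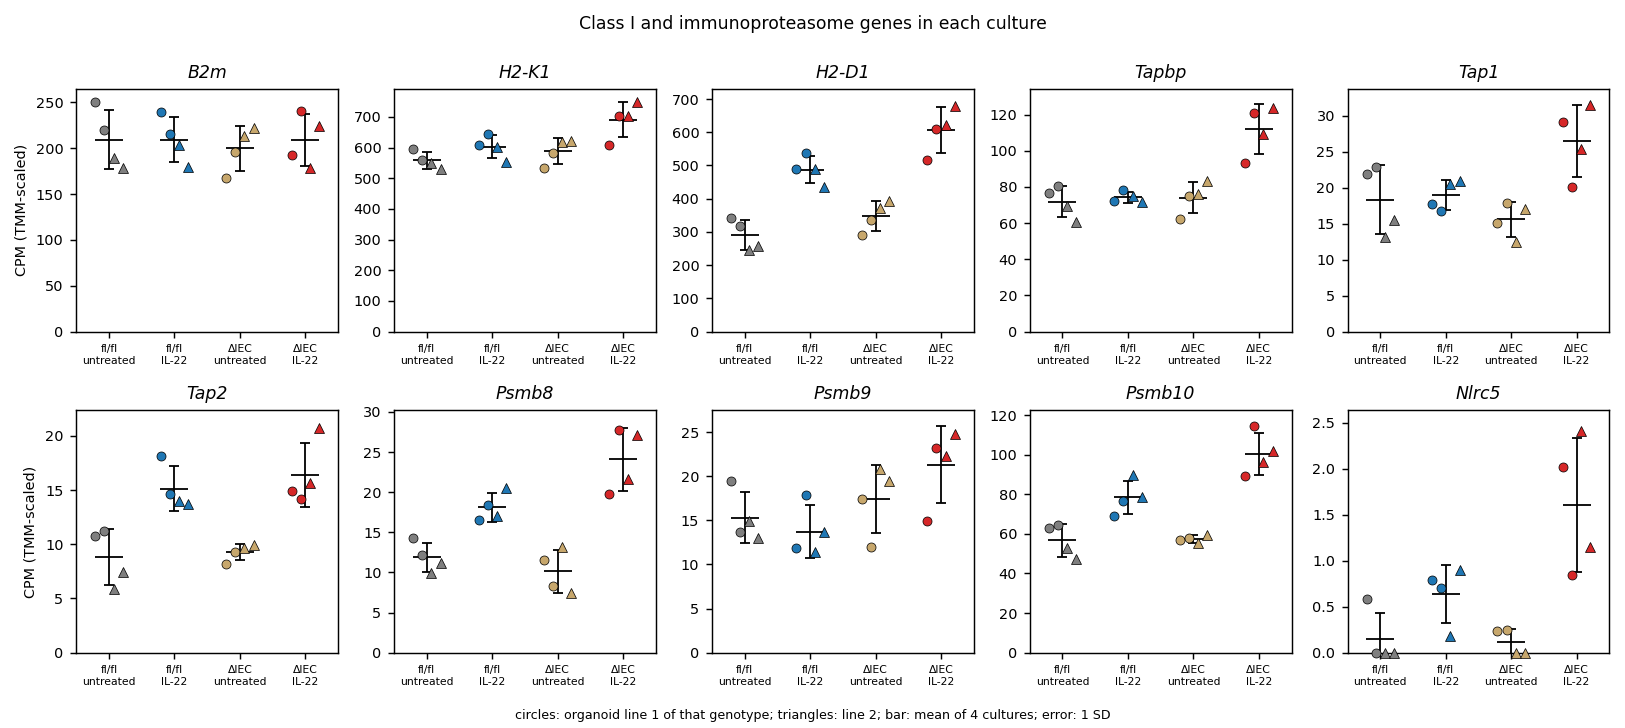
TMM-scaled CPM (vertical axes, from 0) of the 10 genes in each of the 16 cultures, by genotype and treatment. Circles are line 1 and triangles line 2 of that genotype, horizontal bars the mean of 4 cultures and error bars 1 SD. H2-D1, Tap2, Psmb8 and Psmb10 are higher in all treated cultures of both genotypes. Tapbp, Tap1 and, near the limit of detection, Nlrc5 are higher in all treated cultures of ΔIEC alone. Treated and untreated cultures of H2-K1 and Psmb9 overlap, and B2m overlaps throughout.

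The light chain gene B2m, whose product every classical heavy chain needs to reach the surface, had overlapping values in all 4 groups. It had 250.3, 220.1, 189.9 and 178 CPM in untreated fl/fl cultures and 239, 216, 204 and 179.5 CPM with IL-22. The ΔIEC cultures had 168, 196, 214 and 222 CPM untreated and 193, 240.4, 179 and 224 CPM with IL-22. Within fl/fl, the cultures of line 1 were above those of line 2 in both treatments, and in ΔIEC the lines overlapped with IL-22. The log2 fold change with IL-22 was -0.0049 ± 0.12 (SE) in fl/fl, with a 95% interval of -0.25 to 0.24, and 0.07 ± 0.12 (SE) in ΔIEC, with an interval of -0.18 to 0.32. The direction in fl/fl turned with the scaling and the fit.

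The classical heavy chain genes H2-K1 and H2-D1, which encode the polymorphic chains that hold the peptide, gave different calls: with IL-22, H2-D1 passed in both genotypes and H2-K1 in neither. H2-D1 had 342, 318, 246 and 259 CPM in untreated fl/fl cultures against 489, 538, 488 and 436 CPM with IL-22. In ΔIEC it had 290.1, 335, 371 and 394 CPM untreated and 516, 611, 622 and 680.0 CPM treated. No treated culture overlapped an untreated culture of its genotype, and the rise was 1.67-fold in fl/fl (log2 0.74 ± 0.11 (SE), adjusted p = 5.54e-05) and 1.75-fold in ΔIEC (log2 0.81 ± 0.11 (SE), adjusted p = 2.12e-05). Each line rose on its own, by 0.64 and 0.87 on the log2 scale in fl/fl lines 1 and 2 and by 0.85 and 0.77 in ΔIEC lines 1 and 2. H2-K1 stood at 594, 560.4, 549 and 530.5 CPM in untreated fl/fl cultures and at 607, 646, 603 and 553 CPM with IL-22. In ΔIEC the H2-K1 values were 533, 583, 619 and 619.6 CPM untreated and 609.6, 704, 703 and 748 CPM with IL-22. These groups overlapped in both genotypes, with log2 fold changes of 0.11 ± 0.08 (SE) in fl/fl (adjusted p = 0.303) and 0.23 ± 0.08 (SE) in ΔIEC (adjusted p = 0.0293). With the line as a block the ΔIEC value was 0.23 and passed (adjusted p = 0.0034), and over all alternatives its adjusted p ranged from 0.0034 to 0.261.

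As a ratio within each culture, computed after these values had been seen and therefore untested, H2-D1 per base of transcript was 44.3%, 43.8%, 34.5% and 37.6% of H2-K1 in untreated fl/fl cultures. With IL-22 the fl/fl ratios were 62%, 64.2%, 62.3% and 60.8%. ΔIEC cultures had 41.9%, 44.3%, 46.2% and 49% untreated and 65.1%, 66.9%, 68.1% and 70.1% with IL-22. Treated and untreated ratios did not overlap in either genotype, and the group means were 40.0% ± 4.77 and 62.3% ± 1.39 in fl/fl and 45.3% ± 2.98 and 67.5% ± 2.07 in ΔIEC (SD, n = 4). Heavy chain genes are near copies of each other in places, and reads that aligned to several places, 21.5% to 24.2% of all reads, were not counted, so the split of reads between heavy chains is uncertain.

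**Figure D2:**
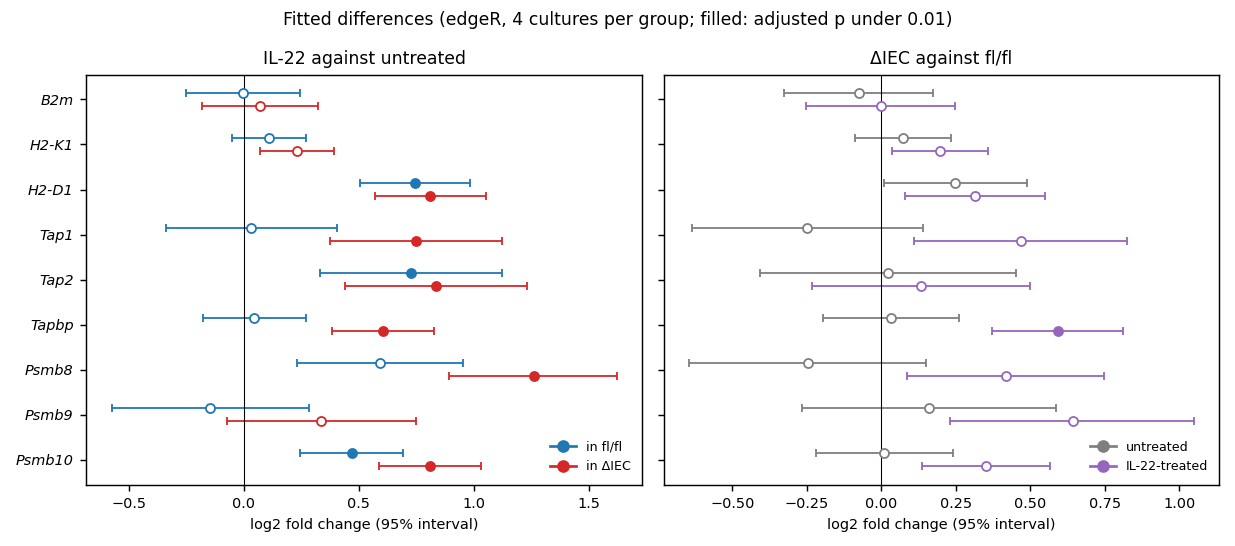
Fitted log2 fold changes (horizontal axis) of the 9 tested genes with 95% intervals, for IL-22 against untreated in each genotype (left) and for ΔIEC against fl/fl in each treatment (right). Filled points have an adjusted p under 0.01: 3 in fl/fl and 6 in ΔIEC on the left, and Tapbp under IL-22 on the right.

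Tap1 and Tap2 encode the chains that pair to form the peptide transporter. Tap2 rose in both genotypes. It had 10.8, 11.2, 5.87 and 7.45 CPM in untreated fl/fl cultures and 18.1, 14.7, 14 and 13.7 CPM with IL-22. ΔIEC cultures had 8.22, 9.31, 9.61 and 9.93 CPM untreated and 14.9, 14.2, 15.7 and 20.8 CPM treated. The groups did not overlap, and the rise was 1.65-fold in fl/fl (log2 0.72 ± 0.19 (SE), adjusted p = 0.00581) and 1.79-fold in ΔIEC (log2 0.84 ± 0.19 (SE), adjusted p = 0.00234). Tap2 rested on 13 to 75 counts per culture, and its fl/fl call was lost in 6 of the fits that left out cultures or a line, in the fit of the 2 groups alone and with the lines summed, while the sign stayed positive in all 18 alternatives. The ΔIEC call was lost in 5 of 18, without the first untreated culture, the fourth treated culture, line 1 or line 2 and with the lines summed.

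For Tap1 the fl/fl cultures gave 21.8, 22.9, 13.1 and 15.4 CPM untreated and 17.8, 16.8, 20.6 and 20.9 CPM with IL-22. The 2 fl/fl lines went opposite ways, with log2 differences of -0.37 in line 1 and 0.54 in line 2, and the fitted change was 0.03 ± 0.18 (SE) (adjusted p = 0.916). In ΔIEC, Tap1 had 15, 17.9, 12.4 and 17 CPM untreated and 29.1, 20.1, 25.3 and 31.4 CPM with IL-22. Every treated ΔIEC culture was above every untreated one, a 1.68-fold rise (log2 0.75 ± 0.18 (SE), adjusted p = 0.00361). That call was lost without the first or the third untreated culture, the fourth treated culture, line 1, or line 2, and with the lines summed. Exons of Tap1 and Psmb9 overlap on opposite strands, and Tap2 shares exonic bases with the antisense genes Gm20496 (12 to 82 counts per culture) and Gm15821 (7 to 38). The labels name the TrueSeq RNA v2 kit while the study's methods name a stranded TruSeq library, and the strand setting of the counting is not given in the sources used here, so reads of such partners cannot be told apart.

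Tapbp, which encodes tapasin, the bridge between TAP and the heavy chain, rose in ΔIEC organoids. Its values there were 62.2, 75, 76.1 and 83.1 CPM untreated and 93.3, 121, 109 and 124 CPM with IL-22, a 1.52-fold difference (log2 0.60 ± 0.11 (SE), adjusted p = 0.000226) without overlap. In fl/fl the values were 76.8, 80.6, 69.5 and 60.7 CPM untreated and 72.2, 78, 74.9 and 71.6 CPM with IL-22, which overlapped (log2 0.05 ± 0.11 (SE), adjusted p = 0.79). Tapbp shares exonic bases with Zbtb22 on the same strand (72 to 235 counts) and with antisense Gm19412 (14 to 63 counts).

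Of 9 loading partners of these proteins, 1 rose with IL-22 in fl/fl and 3 rose in ΔIEC, with none lower and list medians of -0.04 and 0.11. Of all tested genes 10.6% and 9.83% were called higher, so the fl/fl count was near that share. Calr, the chaperone calreticulin, rose in both, by 0.36 and 0.56 on the log2 scale (adjusted p = 0.000685 and 6.6e-06). Pdia3, the disulfide isomerase ERp57, had 0.19 in fl/fl (adjusted p = 0.122) and rose by 0.43 in ΔIEC (adjusted p = 0.00118). Tapbpl, the peptide editor TAPBPR, rose in ΔIEC. It had 25.9, 29.7, 20.3 and 27.7 CPM in untreated and 28.8, 31.9, 34.2 and 31.3 CPM in treated fl/fl cultures. The ΔIEC cultures had 26.8, 23.5, 16.4 and 26.1 CPM untreated and 52.1, 42.5, 43.4 and 45.3 CPM with IL-22, where all treated cultures were higher (log2 0.96 ± 0.14 (SE), adjusted p = 1.99e-05). The call of Tapbpl held in all 18 alternatives, those of Calr in fl/fl and Pdia3 in ΔIEC were lost without line 1 of the genotype and with the lines summed, and that of Calr in ΔIEC with the lines summed.

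The 3 immunosubunit genes differed among themselves. Psmb8, the chymotrypsin-like subunit LMP7, had the largest IL-22 change of the 9 members in ΔIEC. It stood at 11.5, 8.34, 13.2 and 7.45 CPM in untreated and 19.8, 27.8, 21.7 and 27.1 CPM in treated ΔIEC cultures. In fl/fl it had 14.3, 12.2, 9.93 and 11.2 CPM untreated and 16.6, 18.4, 17 and 20.6 CPM with IL-22. Groups did not overlap in either genotype: the rise in ΔIEC was 2.39-fold (log2 1.26 ± 0.17 (SE), adjusted p = 1.82e-05), while in fl/fl the log2 difference of 0.59 ± 0.17 (SE) missed the threshold (adjusted p = 0.0123). With the line as a block the fl/fl difference passed (adjusted p = 0.00519), and over all alternatives its adjusted p ranged from 0.00519 to 0.268. The 2 ΔIEC lines gave log2 differences of 1.26 and 1.24.

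Psmb10, the trypsin-like subunit MECL-1, rose in both genotypes. It had 62.9, 64.6, 52.8 and 47.1 CPM in untreated fl/fl cultures and 69, 76.4, 89.5 and 78.7 CPM with IL-22. ΔIEC cultures had 56.8, 58.1, 55.3 and 59.6 CPM untreated and 89.2, 114, 96.1 and 102 CPM treated. Treated cultures were above untreated ones without overlap, 1.38-fold in fl/fl (log2 0.47 ± 0.11 (SE), adjusted p = 0.00219) and 1.75-fold in ΔIEC (log2 0.81 ± 0.11 (SE), adjusted p = 9.14e-06). In fl/fl the lines were unequal, with log2 differences of 0.19 in line 1 and 0.75 in line 2, and the fl/fl call was lost without line 2, the fourth untreated culture or the third treated culture. Without line 2 the fl/fl value was 0.20.

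Psmb9, which encodes the immunosubunit LMP2, showed no called change. Its fl/fl values were 19.5, 13.7, 14.9 and 13 CPM untreated and 11.8, 17.9, 11.4 and 13.7 CPM with IL-22. The ΔIEC values were 17.4, 12, 20.8 and 19.4 CPM untreated and 14.9, 23.2, 22.3 and 24.8 CPM with IL-22. Treated and untreated cultures overlapped in both genotypes, with log2 changes of -0.15 ± 0.20 (SE) in fl/fl and 0.34 ± 0.20 (SE) in ΔIEC (adjusted p = 0.629 and 0.224). Psmb9 had 30 to 86 counts per culture, and Psmb8 shares exonic bases with antisense Gm20496.

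The constitutive counterparts Psmb5, Psmb6 and Psmb7 were not called with IL-22 in either genotype by edgeR or DESeq2, and none had an unadjusted p under 0.05. Their log2 changes were 0.14, 0.04 and -0.12 in fl/fl and 0.07, 0.05 and 0.16 in ΔIEC. Expressed per base of transcript, Psmb8 was 19.6%, 20.7%, 14% and 16.7% of Psmb5 in untreated fl/fl cultures and 20.1%, 25.4%, 24.2% and 27.9% with IL-22. ΔIEC cultures moved from 12.9%, 10.3%, 15.5% and 10.2% to 28.3%, 27.3%, 25.9% and 29.4%. In fl/fl the ranges overlapped slightly, and in ΔIEC they were far apart, with log2 ratio differences of 0.47 and 1.20 (two-sided exact permutation p = 0.0571 and 0.0286, n = 4 against 4). Psmb10 relative to Psmb7 went from 43.3% ± 1.91 to 65.7% ± 14.1 in fl/fl and from 42.3% ± 2.35 to 66.2% ± 5.07 in ΔIEC (SD, n = 4), without overlap (log2 differences 0.58 and 0.65, exact permutation p = 0.0286 for both). Psmb9 relative to Psmb6 was 9.17% ± 1.26 and 7.97% ± 1.51 in fl/fl and 8.34% ± 2.35 and 9.59% ± 1.25 in ΔIEC, with overlapping cultures (log2 differences -0.21 and 0.24, exact permutation p = 0.257 and 0.429). The smallest p that 4 against 4 cultures can give is 0.0286, and after adjustment over the 12 ratio tests the lowest value was 0.114, so none passed. The permutation treated cultures as exchangeable and ignored the organoid lines, so these p-values do not measure the spread between lines.

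**Figure D3:**
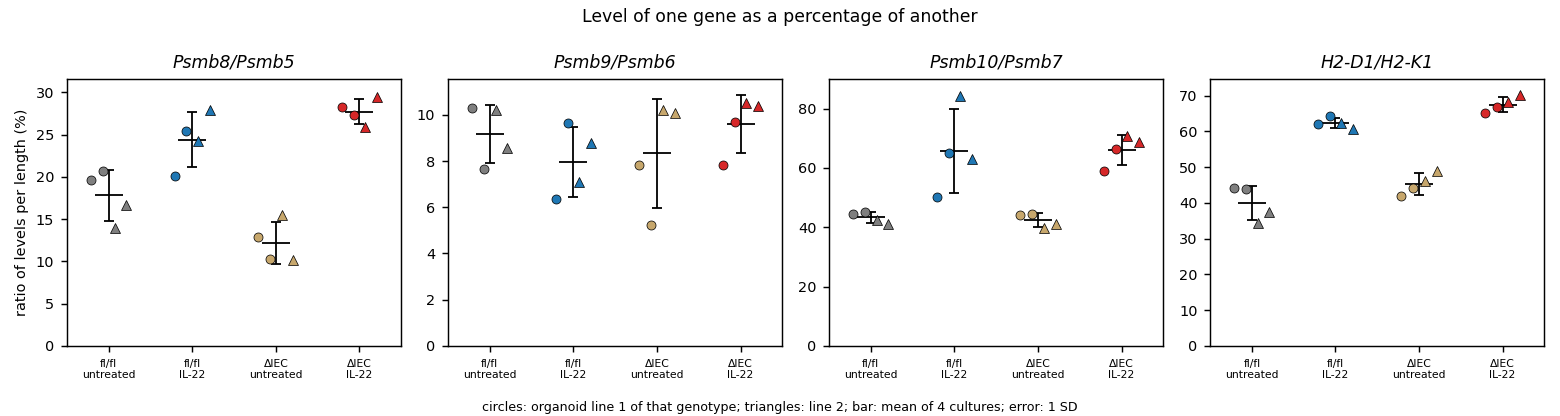
Level of each immunosubunit gene as a percentage of its constitutive counterpart, and of H2-D1 as a percentage of H2-K1, per base of transcript (vertical axes, from 0), in each of the 16 cultures. Symbols are as in the plot of CPM by culture, with the mean and 1 SD of 4 cultures. Psmb10/Psmb7 and H2-D1/H2-K1 are higher in all treated cultures of both genotypes, Psmb8/Psmb5 in those of ΔIEC alone, and Psmb9/Psmb6 overlaps.

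Few other proteasome genes passed with IL-22. Over all tested genes 10.6% were called higher and 10.2% lower in fl/fl, and 9.83% and 7.65% in ΔIEC. None of 11 other 20S core subunits was called in either genotype by edgeR without a block or by DESeq2, 0 of them in fl/fl and 3 in ΔIEC had an unadjusted p under 0.05, and their median log2 change was -0.0029 in fl/fl and 0.15 in ΔIEC. With the organoid line as a block Psma3, an α-ring subunit, passed in ΔIEC (log2 0.27, adjusted p = 0.00275). Of 9 activators and assembly factors, Psme2, the β chain of the PA28 cap, rose in ΔIEC (log2 0.47, adjusted p = 0.00106), with 0.04 in fl/fl. Psme1, its α chain, had -0.05 and 0.22 and was not called. Psmg2, an assembly chaperone, fell in fl/fl by 0.73 on the log2 scale (adjusted p = 0.000606). Both calls were lost without either line of the genotype and with the lines summed, and the block added Psme3 and Psme4, of the PA28γ and PA200 caps, in ΔIEC (adjusted p = 0.00491 and 0.00409).

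Nlrc5 was close to the limit of detection. Counts were 2, 0, 0 and 0 in untreated fl/fl cultures and 2, 3, 1 and 3 with IL-22. The ΔIEC cultures had 1, 1, 0 and 0 counts untreated and 5, 3, 8 and 4 with IL-22. The treated ΔIEC cultures held the highest counts, on average 1.61 CPM, at least 1.66-fold higher than a floor of 3 counts per untreated ΔIEC culture. In fl/fl both groups were at or under the floor, and no fold is given. Without the filter on low counts, Nlrc5 passed in ΔIEC with an adjusted p of 0.0058 by edgeR.

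Among 17 transcription factors that act on class I promoters or in interferon signalling, 4 rose with IL-22 in fl/fl (Stat3, Irf9, Rela and Nfkb1) and 6 rose in ΔIEC (the same 4 with Irf1 and Irf7), with none lower and list medians of 0.18 and 0.22. The shares called higher over all tested genes were 10.6% and 9.83%. Irf1, an activator that binds the ISRE of class I genes, had 73.9, 73.7, 79.8 and 91.5 CPM in untreated and 84, 89.2, 109.9 and 108 CPM in treated fl/fl cultures. In ΔIEC it had 61.8, 71.6, 73.7 and 71.5 CPM untreated and 129, 111, 124 and 112 CPM with IL-22. The ΔIEC groups were well apart (log2 0.77 ± 0.10 (SE), adjusted p = 9.38e-06) and the fl/fl groups overlapped (log2 0.30 ± 0.10 (SE), adjusted p = 0.0296). Both fl/fl lines were higher with IL-22, by 0.23 and 0.34 on the log2 scale, and with the line as a block Irf1 passed in fl/fl too (adjusted p = 0.00372), where Rfx5 then fell (log2 -0.57, adjusted p = 0.0026). Irf7, an interferon-induced member of the same family, had log2 changes of 0.18 ± 0.25 (SE) in fl/fl and 1.5 ± 0.24 (SE) in ΔIEC (adjusted p = 0.622 and 8.16e-05). The interactions were not called for Irf1 or Irf7 (adjusted p = 0.406 and 0.301). With the line as a block the Irf1 interaction had an adjusted p of 0.0191, also above the threshold. In ΔIEC the call of Nfkb1 was lost in 10 of 18 alternatives, with adjusted p up to 0.199, and those of Rela and Irf9 without line 2 and with the lines summed, while those of Irf1, Irf7 and Stat3 held in all 18. In fl/fl, Irf9 lost its call without line 2, and Irf9, Rela and Nfkb1 lost theirs with the lines summed.

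Stat3, the main transducer of IL-22, rose in both genotypes by 1.35 and 1.47 on the log2 scale (adjusted p = 2.66e-09 and 8.47e-10). Of 14 receptors, kinases and inhibitors of interferon and IL-22 signalling, 12 were tested and 3 rose in both genotypes: Il22ra1, the specific chain of the IL-22 receptor, Jak2 and Socs3, the feedback inhibitor. Over all tested genes 10.6% were called higher in fl/fl and 9.83% in ΔIEC. Socs3 rose by 4.53 in fl/fl and 4.31 in ΔIEC on the log2 scale (adjusted p = 1.16e-13 and 4.58e-13). Ifngr2, a chain of the interferon-γ receptor, fell in fl/fl by 0.44 (adjusted p = 0.00141). Socs3 kept its call in all 18 alternatives of each genotype. Il22ra1 and Jak2 lost theirs with the lines summed and on leaving out a line, Il22ra1 in fl/fl also without the filter or the fourth treated culture, and Ifngr2 lost its call with the lines summed or without fl/fl line 2. With the line as a block Ifngr1, the other chain of that receptor, was added in both genotypes and Jak1 in ΔIEC.

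**Figure D4:**
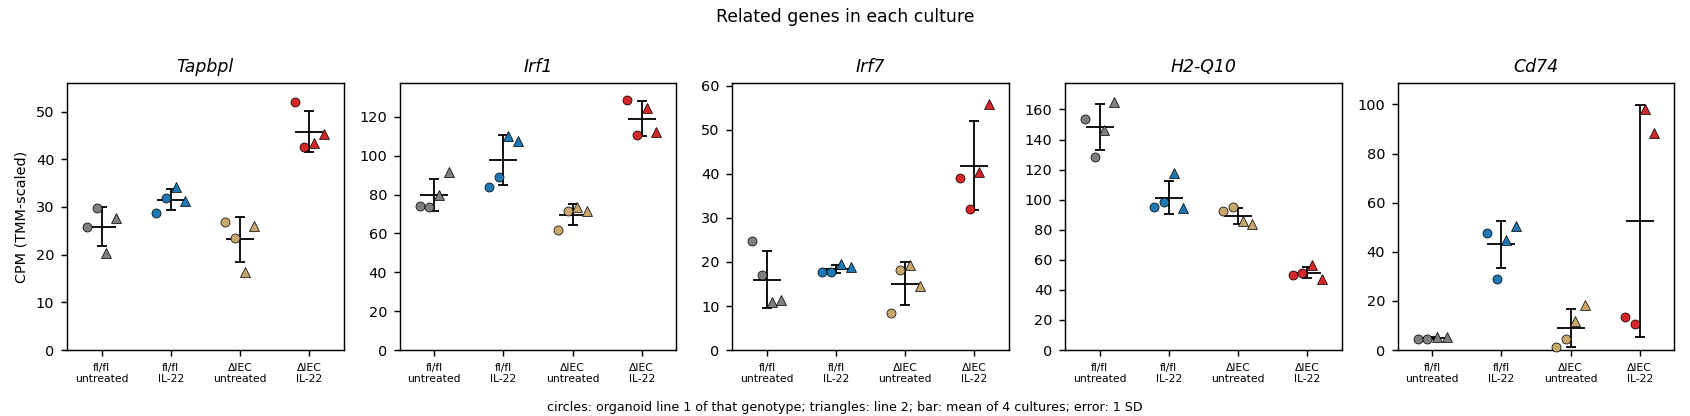
TMM-scaled CPM (vertical axes, from 0) of Tapbpl, Irf1, Irf7, H2-Q10 and Cd74 in each of the 16 cultures, with symbols as in the plot of the 10 genes. Tapbpl, Irf1 and Irf7 are highest in the treated ΔIEC cultures, H2-Q10 is lowest there, and Cd74 in ΔIEC differs between the 2 lines.

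The second question was whether the response to IL-22 depended on the genotype. No member had a called interaction by edgeR, where 0.00796% of all tested genes were called higher and 0.00796% lower, nor by DESeq2, and 4 of 9 had an unadjusted p under 0.05. All 9 interaction estimates were above 0, with a median of 0.34, though those of B2m, Tap2 and H2-D1 turned negative without some of the cultures or lines. Of all tested genes 54.8% were above 0, with a median of 0.03. Tapbp had the smallest p, with an interaction of 0.56 ± 0.15 (SE) and a 95% interval of 0.24 to 0.88 (adjusted p = 0.316 by edgeR). Tap1 followed with 0.72 ± 0.25 (SE) and an interval of 0.19 to 1.24 (adjusted p = 0.516), Psmb8 with 0.67 ± 0.25 (SE) and 0.15 to 1.18 (adjusted p = 0.539), and Psmb10 with 0.34 ± 0.15 (SE) and 0.03 to 0.66 (adjusted p = 0.639). With the organoid line as a block in edgeR the adjusted p was 0.0234 for Tapbp, 0.154 for Tap1 and 0.196 for Psmb8, still above the threshold. The intervals of H2-D1, -0.27 to 0.40, and of Tap2, -0.45 to 0.67, included 0. A rise called in ΔIEC and not in fl/fl was thus not shown to differ between the genotypes for Tap1, Tapbp or Psmb8 at this threshold.

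Genotype was then compared within each treatment, in comparisons that share the treated or untreated cultures with those above. Without IL-22, none of the 9 members differed between ΔIEC and fl/fl by edgeR or DESeq2, against 3.78% of all genes called higher and 5.98% lower in ΔIEC, and 1 member, H2-D1, had an unadjusted p under 0.05. The groups of cultures overlapped for every member, and 10.7% of all genes had all ΔIEC cultures above all fl/fl cultures. With IL-22, 1 of 9 was higher in ΔIEC and none lower, against 9.91% and 9.84% of all genes, and 7 of 9 had an unadjusted p under 0.05. That member was Tapbp, at 112 ± 13.8 CPM in ΔIEC against 74.2 ± 2.95 CPM in fl/fl (SD, n = 4), 1.51-fold higher (log2 0.59 ± 0.10 (SE), adjusted p = 0.000322). It was also the single member without overlap, as were 15.5% of all genes. Psmb10, Psmb9, H2-D1, Tap1, Psmb8 and H2-K1 had log2 differences of 0.35, 0.64, 0.32, 0.47, 0.42 and 0.20, with adjusted p from 0.013 to 0.0535. B2m and Tap2 had -0.00089 and 0.13. With the lines summed Tapbp lost its call (adjusted p = 0.0233) and the count was 0, while over all genes 56 were higher and 132 lower in place of 1245 and 1236. The count rose to 2 without the second or the third treated fl/fl culture or without fl/fl line 2, and to 3 without the first treated ΔIEC culture.

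Several genes around the members were also higher in treated ΔIEC than in treated fl/fl cultures. In this comparison 9.91% of all tested genes were called higher and 9.84% lower. Of the 9 loading partners 4 were higher (Calr, Pdia3, Tapbpl and Uggt1), and among the transcription factors Irf7 was higher, by 1.18 on the log2 scale (adjusted p = 0.000645), and Irf3 lower. Of 11 other 20S core subunits 5 were higher and none lower, with Psma5 at 0.61 (adjusted p = 0.00025) and a list median of 0.35, beside 0.01 over all genes. Of 9 activators and assembly factors 5 were higher, among them Psme2 at 0.54 and Psme1 at 0.45 (adjusted p = 0.000329 and 0.00231), with a list median of 0.45. Psmb6 was also higher, by 0.36 (adjusted p = 0.00929), while Psmb5 and Psmb7 had 0.23 and 0.33 and were not called. Without IL-22 no gene of these 3 proteasome lists was called for genotype by edgeR or DESeq2, but list medians were already above 0. They were 0.165 for the 20S core (10 of 11 estimates above 0), 0.115 for activators and assembly factors and 0.303 for constitutive catalytic subunits. The last was 0.33 under IL-22. Summed 20S levels were 1791 to 1807 CPM in untreated ΔIEC and 1480 to 1749 CPM in untreated fl/fl cultures. With the lines summed none of the genes called here passed. Among 19 alternatives the call was lost in 14 for Psmb6, 17 for Psme3, 16 for Psmg1, 11 for Tapbpl and 10 for Irf3, in 2 to 5 for Irf7, Uggt1, Pomp and Psme1, and in 1, the summed lines, for Calr, Pdia3 and Psme2. Leaving out cultures or lines gave 2 to 5 loading partners higher, 1 to 5 activators and assembly factors, and 0 to 7 of the 20S core subunits, with 0 without ΔIEC line 1. In the ratios of Psmb8 to Psmb5, Psmb9 to Psmb6 and Psmb10 to Psmb7, ΔIEC differed from fl/fl under IL-22 by log2 values of 0.19, 0.28 and 0.03 (exact permutation p = 0.114, 0.171 and 0.83), and without IL-22 by -0.55, -0.175 and -0.04 (exact permutation p = 0.0571, 0.6 and 0.429).

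Some nonclassical heavy chains fell where H2-D1 rose. Of 22 class Ib and class I-like genes 15 were tested. With IL-22 none rose in either genotype by edgeR without a block or by DESeq2 (unadjusted p under 0.05 for 0 in fl/fl and 2 in ΔIEC), 2 fell in fl/fl (H2-Q10 and H2-T3) and 4 fell in ΔIEC (the same 2 with H2-Q1 and H2-Q2), with list medians of -0.24 and -0.10. Of all tested genes 10.2% were called lower in fl/fl, near the share of this list, and 7.65% in ΔIEC. As for H2-D1 and H2-K1, the split of reads between such heavy chains is uncertain. With the organoid line as a block H2-T23, which encodes the nonclassical chain Qa-1, rose in ΔIEC (log2 0.41, adjusted p = 0.000786), all treated cultures lying above all untreated ones, and H2-Q2 fell in fl/fl too (log2 -0.39, adjusted p = 0.000113). In ΔIEC the call with IL-22 was lost in 8 of 18 alternatives for H2-Q1 and in 3 for H2-Q2. ΔIEC cultures were also below fl/fl cultures for 3 of them untreated (H2-Q1, H2-Q2 and H2-Q10) and for 4 under IL-22, with H2-Q7 in addition. Over all tested genes 5.98% and 9.84% were called lower in ΔIEC. With the lines summed, the 3 untreated genotype calls were lost (adjusted p = 0.0222 to 0.0413 by edgeR), as were those of H2-Q2 and H2-Q7 under IL-22. The IL-22 call of H2-Q10 in fl/fl was then lost too (adjusted p = 0.016). The genotype call of H2-Q7 under IL-22 was lost in 4 of 19 alternatives. H2-Q10, a secreted class Ib chain, had 154, 129, 146 and 165 CPM in untreated fl/fl cultures and 95.1, 98.3, 118 and 94.5 CPM with IL-22. In ΔIEC it had 92.3, 94.9, 86.1 and 83.5 CPM untreated and 50.1, 51.5, 56.3 and 47.6 CPM treated. Untreated fl/fl cultures were highest and treated ΔIEC cultures lowest, with the other two groups overlapping in between. The log2 changes were -0.54 ± 0.09 (SE) and -0.80 ± 0.10 (SE) for IL-22 (adjusted p = 0.000128 and 4.2e-06) and -0.73 ± 0.09 (SE) and -0.99 ± 0.10 (SE) for ΔIEC untreated and treated (adjusted p = 3.61e-05 and 1.28e-06). H2-T3, the thymus leukemia antigen of small intestinal epithelium, fell by 0.73 in fl/fl and 0.89 in ΔIEC with IL-22 (adjusted p = 0.00592 and 0.00311). Its fl/fl call was lost in 11 of 18 alternatives, on leaving out any culture or line and with the lines summed. Its ΔIEC call was lost in 6 of 18, among them those without the first or second untreated culture, the fourth treated culture or line 2, with log2 values from -1.54 to -0.473. The summed list was 731 to 915 CPM without and 634 to 681 CPM with IL-22 in fl/fl, and 522 to 576 CPM without and 411 to 457 CPM with IL-22 in ΔIEC.

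Of 9 class II presentation genes, 7 were tested. Cd74, the invariant chain, rose with IL-22 in fl/fl, and Cd74, Ciita, Ctss and H2-Eb1 rose in ΔIEC, with list medians of 1.37 and 1.52, above those of the class I members. Called higher were 10.6% and 9.83% of all tested genes. With the organoid line as a block, which pairs treated with untreated cultures of a line, 6 of 7 rose in fl/fl (Ciita, Ctss, H2-Eb1, H2-Ab1 and H2-DMb1 added, adjusted p = 0.000114, 0.00433, 0.000529, 7.63e-08 and 0.00572) and 5 of 7 in ΔIEC (H2-Ab1 added, adjusted p = 2.58e-05). No class II gene had a called interaction by edgeR, with or without the block, or by DESeq2 (unadjusted p under 0.05 for 1). Cd74 had 4.66, 4.32, 5.41 and 5.32 CPM in untreated fl/fl and 47.7, 29.1, 44.8 and 50.7 CPM in treated fl/fl cultures. ΔIEC cultures had 1.17, 4.41, 12 and 18.2 CPM untreated and 13.3, 10.5, 98.2 and 88.2 CPM with IL-22. Line 2 of ΔIEC was far above line 1 in both treatments, but each of the 4 lines rose (log2 3.12 ± 0.68 (SE) in fl/fl and 2.78 ± 0.63 (SE) in ΔIEC, adjusted p = 0.00156 and 0.00237). The ΔIEC call of Cd74 was lost in 6 of 17 alternatives, without the first or second untreated culture, the third treated culture or the fourth treated culture, in the fit of the compared groups alone and with the lines summed (adjusted p = 0.09). It passed without line 2, where the log2 change was 2.04. In fl/fl the call was lost without either line and with the lines summed. Ciita, the class II counterpart of Nlrc5, had log2 changes of 2.23 ± 0.63 (SE) in fl/fl and 2.96 ± 0.74 (SE) in ΔIEC (adjusted p = 0.0104 and 0.00483). The ΔIEC calls of Ciita and H2-Eb1 were each lost in 7 of 16 alternatives, and that of Ctss in none of 18.

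**Figure D5:**
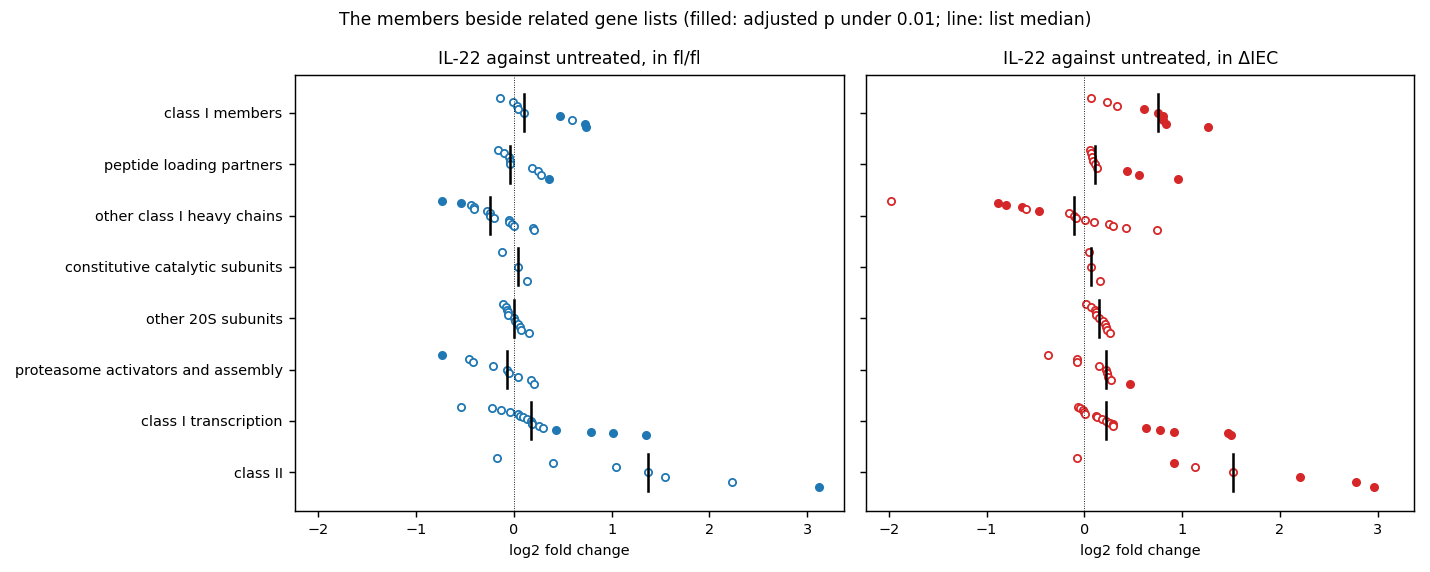
Fitted log2 fold changes with IL-22 (horizontal axis, shared scale) of the 9 tested members and of 7 lists of related genes, 1 point per tested gene, in fl/fl (left) and ΔIEC (right). Filled points have an adjusted p under 0.01 and vertical lines mark list medians, which for the members are 0.11 in fl/fl and 0.75 in ΔIEC.

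By level per length, in RPKM (CPM divided by transcript length in kilobases), the members in untreated fl/fl cultures ran from H2-K1 at 345 ± 16.7, B2m at 244 ± 37.6 and H2-D1 at 138 ± 22 down to Psmb10 at 43.3 ± 6.34, Tapbp at 24.8 ± 3.03, Psmb9 at 11.3 ± 2.15, Psmb8 at 7.30 ± 1.13, Tap1 at 6.20 ± 1.62 and Tap2 at 2.56 ± 0.75 (SD, n = 4). Psmb8 and Tap1 lay within 1 SD of each other, and the other neighbours did not. In treated ΔIEC cultures H2-K1 was at 427 ± 35.9, H2-D1 at 289 ± 32.4 and B2m at 243 ± 32.9 RPKM, so that H2-D1 had passed B2m, and Psmb8 at 14.8 ± 2.43 was within 1 SD of Psmb9 at 15.8 ± 3.23 RPKM.

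Averaged over the 9 members, centred log2 CPM was -0.24 ± 0.21 without and 0.06 ± 0.04 with IL-22 in fl/fl, and -0.22 ± 0.09 without and 0.39 ± 0.15 with IL-22 in ΔIEC (SD, n = 4). The untreated groups overlapped and the treated ΔIEC group was highest. Tapbp and Psmb10 followed this mean most closely over the 16 cultures, with root mean square differences of 0.135 and 0.138, and Psmb8 and Psmb9 least, with 0.31 and 0.304. Of all other tested genes, the 5 nearest to the mean were St14 (0.0964), Itga3 (0.105), Lsr (0.11), Arf1 (0.114) and Tmprss2 (0.114), over the same 16 cultures, which share library depth and treatment. None of the 5 belongs to the lists used here.

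Markers of the organoids' cell types moved in the same comparisons, and their part in the results was not tested. For IL-22, 10.6% of all tested genes were called higher and 10.2% lower in fl/fl, and 9.83% and 7.65% in ΔIEC. For genotype, 5.98% untreated and 9.84% with IL-22 were called lower in ΔIEC. Of 8 general epithelial markers, 5 rose with IL-22 in fl/fl and 2 in ΔIEC, and with the organoid line as a block 6 rose and Cdx2 fell in each. With IL-22, 7 of 8 enterocyte markers fell in fl/fl and 5 of 8 in ΔIEC (8 of 8 in both with the block), and the summed list went from between 5547 and 6691 to between 1833 and 2188 CPM in fl/fl and from between 5202 and 6940.0 to between 1682 and 3048 CPM in ΔIEC. Of 6 stem cell markers 2 fell in fl/fl and 4 in ΔIEC (4 and 6 with the block), with Olfm4 lower by 2.56 and 1.56 on the log2 scale (adjusted p = 5.9e-06 and 0.000208). Goblet cell markers split, 3 of 6 rising in fl/fl, and 2 rising and 2 falling in ΔIEC; with the block 2 also fell in fl/fl and 3 in ΔIEC. Of 6 Paneth cell markers, 3 were lower in ΔIEC than in fl/fl untreated and 5 with IL-22 (0 and 2 with the lines summed), and their summed level was 3864 to 4583 CPM in treated ΔIEC against 6977 to 9396 CPM in treated fl/fl cultures.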

How the data were processed

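Gene read counts of 16 organoid cultures were used as the authors deposited them: per the study's methods, reads were trimmed with cutadapt, aligned to the mouse genome (GRCm38) with TopHat2 and counted per gene with HTSeq. Versions, annotation release and the strand setting are not given in the sources used here. HTSeq's summary lines were left out: 38.0% to 40.1% of reads had no feature, 21.5% to 24.2% were not unique and 0.74% to 1.13% were ambiguous. Symbols came from GENCODE vM21 (49326 of 49585 identifiers).

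All 16 cultures entered one edgeR 4.0.16 quasi-likelihood fit (R 4.3.3, TMM scaling, filterByExpr, 12559 genes), with Benjamini-Hochberg adjustment over all genes and a threshold of 0.01, for 5 comparisons. RPKM used the longest principal transcript. Ratios (log2, pseudocount 0.5) were tested by exact permutation of cultures without regard to line, two-sided, with scipy 1.17.1. The H2-D1 to H2-K1 ratio was chosen after its values were seen. Line pairs the treated and untreated cultures: deviations from group means correlated at 0.26 to 0.44 within a line of fl/fl and 0.056 to 0.32 within a line of ΔIEC, and at -0.43 to -0.078 between lines. Lines are nested in genotype, so no block was fitted for genotype.

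Members and lists were chosen with earlier results of these data known. Named were the 10 members, up to 6 called genes per list, Psmb5, Psmb6, Psmb7, Irf1 and Atg16l1, and the 5 genes nearest to the members' mean profile. Genes that only an alternative called are named beside their list, chosen after their values were seen. Some genes of the lists are not reported here and were left out of the list counts. Alternatives were DESeq2 1.42.0, RLE scaling, other filters, only the compared groups, the line as a block in edgeR or limma-voom (limma 3.58.1), lines summed, an adjusted p of 0.05, another pseudocount for ratios, and leaving out each culture or line. The edgeR fit without a block was tested on simulated counts with known changes. These were drawn without a line effect, so the test does not cover the line structure, nor the other alternatives or the ratios.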

Additional observations from a re-analysis of the deposited data

Results flagged for a closer look

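In 88 groups of 4 cultures, over the CPM of the genes given by culture and the ratios, the gap between the farthest culture and its nearest neighbour was divided by the group's range and set against Dixon's 95% critical value for 4 samples. Chance alone lets a share of groups pass this value, and 3 passed. Nlrc5 in untreated fl/fl cultures had a quotient of 1.0, since the first culture held 2 counts (0.582 CPM) and the others none. H2-Q10 in IL-22-treated fl/fl cultures had a quotient of 0.839, with 118 CPM in the third culture. Atg16l1 in IL-22-treated ΔIEC cultures had a quotient of 0.908, with 5.95 CPM in the second culture, and the number of class I and immunoproteasome genes called was the same without that culture.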

How the results depend on the processing

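The number of members called stayed at 0 for the interaction and for genotype without IL-22 under every alternative run. For IL-22 in fl/fl it was 0 with the lines summed and 1 to 4 on leaving out cultures or lines, for IL-22 in ΔIEC 2 and 3 to 7, and for genotype under IL-22 0 and 1 to 3. For genotype under IL-22 it was also 6 at an adjusted p of 0.05 and 4 without the filter. With the organoid line as a replicate block 4 members passed in fl/fl (Psmb8 added, adjusted p = 0.00519 by edgeR) and 7 in ΔIEC (H2-K1 added, adjusted p = 0.0034), and the block changed no other call of a member. The cause of these changes was not tested, except that summing leaves 2 lines per group. Over all genes, lines summed gave 356 higher and 187 lower calls for IL-22 in fl/fl (1329 and 1279 otherwise), 385 and 250 in ΔIEC (1234 and 961), 3 and 7 for genotype untreated (475 and 751) and 56 and 132 under IL-22 (1245 and 1236). An adjusted p of 0.05 gave 1957 and 2100, 1901 and 1599, 1121 and 1438, and 2116 and 2052. The interaction had 1 call each way, 3 and 8 by DESeq2, 15 and 41 with the block, 2 and 3 by limma-voom, 31 and 49 without the filter and 0 with lines summed. Genotype untreated had 748 and 1092 without the filter and 271 and 506 by limma-voom.

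In the alternatives that kept all cultures, directions that turned belonged to values near 0 that were not called. B2m with IL-22 in fl/fl became 0.0134 with DESeq2, 0.0127 with RLE scaling, 0.00235 without the filter, 0.00595 with only the compared groups, 0.009 with lines summed and 0.00513 with the replicate block. Psmb6 in the interaction became -0.00556 with DESeq2 and -0.00664 with RLE scaling, Psmb10 for genotype untreated -0.00262 with at least 10 counts per culture, and B2m for genotype under IL-22 0.0196 without the filter and 0.0182 with lines summed.

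Leaving out each culture or line also turned the sign of the following log2 values. For IL-22 in fl/fl the ranges were -0.0115 to 0.108 for Psmb6, -0.0628 to 0.209 for Tapbp, -0.38 to 0.543 for Tap1 and -0.0769 to 0.0912 for B2m. For IL-22 in ΔIEC they were -0.0952 to 0.181 for Psmb6, -0.0135 to 0.152 for Psmb5, -3.02 to 0.476 for Atg16l1, -0.00439 to 0.284 for Psmb7 and -0.114 to 0.224 for B2m. In the interaction they were -0.15 to 0.142 for Psmb6, -0.166 to 0.014 for Psmb5, -0.209 to 0.284 for Tap2, -3.19 to 0.29 for Atg16l1, -0.108 to 0.213 for B2m and -0.0887 to 0.17 for H2-D1. For genotype untreated they were -0.0971 to 0.185 for Tapbp, -0.259 to 0.425 for Tap2, -0.0637 to 0.185 for Psmb7, -0.149 to 0.209 for Psmb10, -0.509 to 0.116 for Tap1, -0.239 to 0.112 for B2m and -0.0278 to 0.395 for Psmb9. Under IL-22 they were -0.0714 to 0.279 for Tap2 and -0.118 to 0.0978 for B2m. The ranges of Atg16l1 were not near 0. With IL-22 in ΔIEC it passed as lower without the second treated culture (adjusted p = 0.00406 by edgeR). The log2 ratio differences with IL-22 ranged from 0.17 to 0.764 for Psmb8 to Psmb5 in fl/fl, from 0.35 to 0.804 for Psmb10 to Psmb7 in fl/fl and from 0.501 to 0.791 in ΔIEC.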
